A study of Mus musculus with 6 samples.

Results

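The genes described here are 10 components and target genes of the YAP pathway: the coactivators Yap1 and Wwtr1, the transcription factors Tead1 and Tead3, the upstream scaffold Wwc1, the kinases Lats1 and Lats2, and the genes Crim1, Amotl2 and Ajuba, which have been used as readouts of YAP activity. They were picked by symbol, each matched 1 row among the 22274 genes of the deposited table, and all 10 had enough reads to be tested. Bulk RNA was sequenced from epithelial cells isolated from mouse ileum, with 3 libraries per group. In the Ogt knockout group, labelled as specific to intestinal stem cells, floxed Ogt was combined with Olfm4-CreER, a recombinase that is switched on by tamoxifen and driven by a gene of crypt stem cells. The control group has LoxP as its genotype and Olfm4Ctrl in its sample names, and whether it carried the recombinase is not stated, so effects of the recombinase and of Ogt loss cannot be told apart. Tamoxifen was given on 3 days in a row from an age of 2 months, and tissue was taken on day 10. Where within Ogt the floxed part lies is not given. Nor do the labels tie each library to an animal of its own, and p-values therefore reflect the spread between these libraries, which may be technical.

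The Hippo pathway is a kinase cascade in which LATS1 and LATS2 phosphorylate the coactivators YAP and TAZ (the product of Wwtr1) and thereby keep them out of the nucleus. Unphosphorylated YAP and TAZ bind TEAD transcription factors and switch on target genes, several of which, such as Lats2, Amotl2 and Ajuba, encode regulators of the same pathway. In the intestinal epithelium YAP is known for its role in regeneration after injury, and OGT, the O-GlcNAc transferase encoded by Ogt, is known to modify YAP in cancer cells. Transcript levels, which are what was measured here, do not show where the YAP protein is or how it is modified.

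Ogt stood at 48.5, 43.0 and 36.0 CPM (read counts scaled to library size with TMM factors) in the knockout libraries, against 140.1, 127 and 128 CPM in the controls, with a log2 fold change of -1.63 ± 0.13 (± SE here and below; adjusted p = 0.00121). Library totals were between 14389429 and 18076479 estimated counts. Of the 14005 genes tested, 18.7% passed an adjusted p of 0.05, with 1307 higher and 1312 lower in Ogt knockout (edgeR quasi-likelihood test, Benjamini-Hochberg adjustment over all tested genes, as throughout). Without TMM factors the median fold change over all genes was 0.09 on the log2 scale, against -0.05 with them, and 2045 genes were higher and 859 lower. The epithelial markers Epcam and Vil1 and the ileal bile acid-binding gene Fabp6 were abundant in every library, the lowest value of any being 2112 CPM, for Epcam in knockout 3. Of 8 epithelial markers Cdx2 fell (-0.53 ± 0.11, adjusted p = 0.0148), with 4 fold changes above 0, 4 below and a median of -0.03. Of 6 ileal enterocyte markers Slc10a2 (-1.35 ± 0.22, adjusted p = 0.00656) and Fabp2 (-0.78 ± 0.16, adjusted p = 0.0144) fell, with 1 fold change above 0, 5 below and a median of -0.25. Smooth muscle markers summed to 849.9, 1174 and 1297 CPM in knockout libraries 1 to 3, against 924, 2226 and 2140 CPM in controls 1 to 3. Paneth cell markers were low in control 2, at 221 CPM, against 1180.3 CPM or more in each of the other 5 libraries.

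Most of the YAP pathway genes did not pass the test between Ogt knockout and control ileal epithelium, and 1 of the 10, Crim1, fell. That is 10.0% of the members, against the 18.7% of all tested genes that changed (9.33% higher and 9.37% lower). The fold change was below 0 for 8 members and above 0 for 2, with a median of -0.15, against -0.05 over all tested genes. The groups did not overlap for 2 members, Crim1 and Yap1, or 20.0%, against 39.8% of all tested genes. In a bulk sample, fewer cells of a type and less RNA per cell cannot be told apart.

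**Figure D1:**
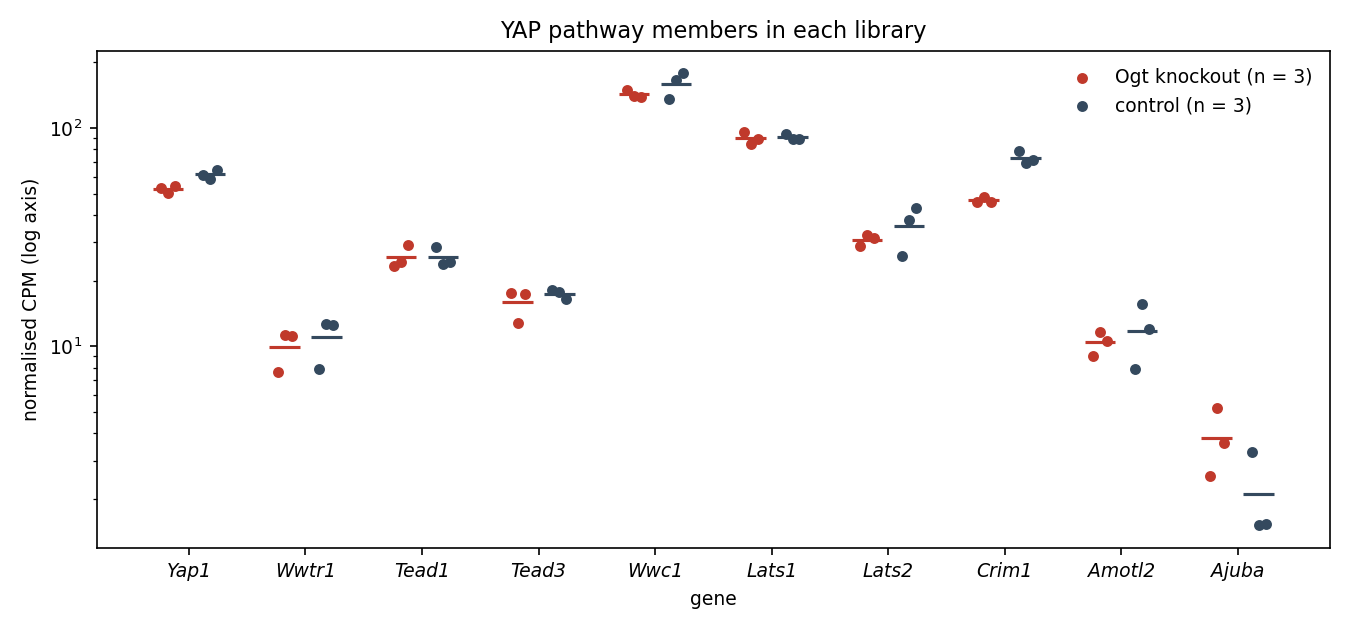
Normalised CPM on a log axis for the 10 members in each of the 3 Ogt knockout (red, left) and 3 control libraries (dark, right), with a bar at each group mean. The groups are apart for Crim1 and Yap1 and overlap for the other 8 genes.

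Yap1 and Wwtr1, which encode the paired coactivators YAP and TAZ, did not pass the test. Yap1 stood at 52.9, 50.3 and 54.5 CPM in the knockout libraries, against 61.2, 58.5 and 64.6 CPM in the controls. Every knockout library thus lay below every control, by a small margin (-0.23 ± 0.09, interval -0.44 to -0.01, adjusted p = 0.126; intervals are 95% and unadjusted). Wwtr1 was read at 7.60, 11.2 and 11.1 CPM in knockout libraries 1 to 3, against 7.85, 12.7 and 12.5 CPM in controls 1 to 3. The low libraries were knockout 1 and control 1, so the spread lay within the groups rather than between them (-0.14 ± 0.24, interval -0.69 to 0.42, adjusted p = 0.724). Per length, Yap1 was the more abundant of the pair: Wwtr1 made up 11.2%, 15.8% and 14.5% of their summed FPKM (fragments scaled to transcript length and library size) in the knockout libraries, against 9.83%, 15.2% and 13.6% in the controls.

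Of the TEAD factors, which carry YAP and TAZ to DNA, Tead1 stood at 23.4, 24.4 and 29.0 CPM in knockout libraries, against 28.5, 23.8 and 24.4 CPM in controls. The groups covered nearly the same range (0.00 ± 0.14, interval -0.31 to 0.32, adjusted p = 0.994). Tead3 stood at 17.6, 12.8 and 17.3 CPM in knockout libraries and 18.2, 17.7 and 16.4 CPM in controls. It was lowest in knockout 2, while the other libraries lay close together (-0.13 ± 0.16, interval -0.50 to 0.23, adjusted p = 0.595). Per length Tead3 was the leading family member in every library, with 57.1%, 49.2% and 51.3% of the summed FPKM of Tead1 to Tead4 in knockout libraries, against 61.7%, 65.9% and 59.4% in controls. This share was lower in all 3 knockout libraries than in any control, although the CPM of Tead3 overlapped between the groups. The share rests on FPKM, which depends on the transcript length assigned to each gene in each library. Tead1 stood at 3.49 ± 0.738 FPKM in knockout libraries and 2.62 ± 0.280 FPKM in controls (SD), although its CPM hardly differed. Shares of counts were not taken. Tead2, a rarer family member named after its values were seen, stood at 2.28, 2.94 and 2.96 CPM in knockout libraries and 1.77, 2.18 and 2.35 CPM in controls. It did not pass on counts (0.38 ± 0.27, adjusted p = 0.360) but did in limma on log2(FPKM + 0.1), at 0.95 ± 0.21 (adjusted p = 0.0216).

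Upstream, Wwc1, which encodes the scaffold KIBRA that promotes LATS activity, was the most abundant member per length, at 32.9 ± 0.439 FPKM in knockout libraries and 33.6 ± 3.80 FPKM in controls (SD, n = 3 each). In CPM it stood at 149, 139.8 and 139 in knockout libraries, against 136, 165 and 178 in controls. Control 1 lay below all 3 knockout libraries and controls 2 and 3 above them (-0.17 ± 0.12, interval -0.45 to 0.11, adjusted p = 0.371). Lats1 stood at 96.4, 84.1 and 89.5 CPM in knockout libraries and 94.3, 89.0 and 89.2 CPM in controls. The groups overlapped almost fully (-0.01 ± 0.10, interval -0.23 to 0.21, adjusted p = 0.934). Lats2, the second kinase and a target gene of YAP, stood at 28.8, 32.4 and 31.4 CPM in knockout libraries, against 25.9, 38.0 and 42.8 CPM in controls. The controls spread widely on both sides of the knockout libraries (-0.20 ± 0.18, interval -0.62 to 0.21, adjusted p = 0.468). The estimated count of Lats2 was not whole in 1 library, while those of the other 9 members were whole in all 6.

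In order of mean FPKM over the 6 libraries the members ran Wwc1 (33.3), Yap1 (14.4), Lats1 (12.5), Crim1 (10.4), Lats2 (7.64), Tead3 (6.49), Amotl2 (3.08), Tead1 (3.06), Wwtr1 (2.23) and Ajuba (0.887). Wwc1 lay above Yap1 in every library, Tead3 above Amotl2, and Wwtr1 above Ajuba. Each of the other neighbouring pairs overlapped in the range of their libraries.

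Crim1, which encodes a transmembrane protein with cysteine-rich repeats that binds growth factors of the BMP family, was the member that fell. It stood at 45.9, 48.6 and 45.7 CPM in the knockout libraries, against 78.4, 69.3 and 71.1 CPM in the controls. The knockout libraries were tightly grouped and well below every control (-0.64 ± 0.09, interval -0.86 to -0.42, adjusted p = 0.00484). Crim1 passed the test with each library left out in turn, at -0.67 to -0.54 and an adjusted p of at most 0.0301. On FPKM the fall was smaller, at -0.43 ± 0.12 in limma on log2(FPKM + 0.1), with an adjusted p of 0.0423. Smooth muscle markers were lowest among the controls in control 1, the library in which Crim1 was highest; without it the fold change was -0.54 ± 0.10. Stromal markers summed to 467, 412 and 479 CPM in knockout libraries and 302, 374 and 415 CPM in controls. Among the 8 stromal genes the collagens Col1a1 (0.79 ± 0.16, adjusted p = 0.0146) and Col1a2 (0.58 ± 0.12, adjusted p = 0.0140) were higher. Of the 8 fold changes 6 were above 0 and 2 below, with a median of 0.18. The part of stromal cells in the level of Crim1 was not tested.

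By the root mean square difference of centred log2 CPM over the 6 libraries, the 3 genes whose pattern was most like that of Crim1 among 13233 genes were Sidt2 (0.036 log2 units), Tmem161a (0.044) and Pex7 (0.049). Sidt2 (-0.69 ± 0.10, adjusted p = 0.00419), Tmem161a (-0.61 ± 0.17, adjusted p = 0.0374) and Pex7 (-0.64 ± 0.11, adjusted p = 0.00765) each fell. The match includes the difference between the groups, so fold changes near that of Crim1 follow from the choice and are no separate result.

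**Figure D2:**
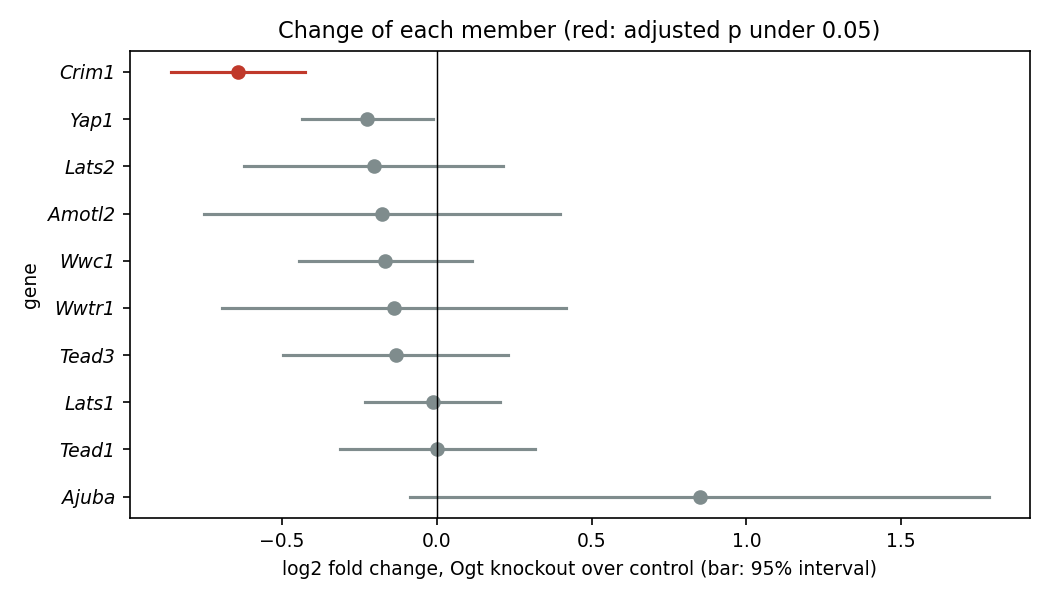
Log2 fold change of each member, Ogt knockout over control, with its 95% interval, ordered from the lowest at the top. Crim1 (red) is the gene past an adjusted p of 0.05; the unadjusted interval of Yap1 ends just below 0 and the other 8 span 0.

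The remaining target genes gave no call. Amotl2, which encodes an angiomotin-like scaffold that holds YAP at junctions, stood at 9.05, 11.6 and 10.6 CPM in knockout libraries, against 7.85, 15.6 and 12.0 CPM in controls. The knockout libraries lay inside the range of the controls (-0.18 ± 0.25, interval -0.75 to 0.40, adjusted p = 0.654). Ajuba, a LIM-domain protein that restrains LATS kinases, was the scarcest member, with 199 counts over the knockout libraries and 105 over the controls. It stood at 2.56, 5.22 and 3.60 CPM in knockout libraries and 3.29, 1.52 and 1.53 CPM in controls. Controls 2 and 3 lay below all knockout libraries while control 1 lay among them (0.85 ± 0.41, interval -0.09 to 1.78, adjusted p = 0.181). Without control 1 Ajuba passed the test, at 1.37 ± 0.38 (adjusted p = 0.0368), so that library decides its call.

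TEAD factors recognise the letters GGAATG, and this motif was searched for on both strands (GGAATG or CATTCC, which do not overlap each other) in windows from 250 bases before to 50 bases after each RefSeq gene start (build GRCm38.p6). Of the 9 members in the promoter table, 7 held it in at least 1 window, against 16.6% of all 27025 genes. By window these were 9 of 13, with overlapping windows for Wwtr1 and for Tead3, against 14.7% of all 32851 windows. Wwc1 and Lats1 held none. The members were picked as components and target genes of this pathway, so a share above that of all genes may follow from the choice. The 250 bases before the start are shown for Crim1, the target gene that fell, and for Amotl2 and Ajuba, which gave no call, with the motif in capitals. Crim1 lies at chr17:78199998-78200247 on the plus strand, Amotl2 at chr9:102717554-102717803 on the plus strand, and Ajuba at chr14:54577662-54577911 on the minus strand, and each is written 5′ to 3′ on the strand of its gene.
Crim1: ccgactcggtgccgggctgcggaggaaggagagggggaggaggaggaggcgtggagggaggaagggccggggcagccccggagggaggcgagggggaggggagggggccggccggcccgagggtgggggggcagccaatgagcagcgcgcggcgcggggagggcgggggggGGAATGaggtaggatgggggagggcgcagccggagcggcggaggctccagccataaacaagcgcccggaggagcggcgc
Amotl2: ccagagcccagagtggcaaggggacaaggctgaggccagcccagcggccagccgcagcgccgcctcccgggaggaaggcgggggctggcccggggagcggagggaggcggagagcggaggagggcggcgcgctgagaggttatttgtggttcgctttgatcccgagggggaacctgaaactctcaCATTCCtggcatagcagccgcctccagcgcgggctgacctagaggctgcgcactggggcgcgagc
Ajuba: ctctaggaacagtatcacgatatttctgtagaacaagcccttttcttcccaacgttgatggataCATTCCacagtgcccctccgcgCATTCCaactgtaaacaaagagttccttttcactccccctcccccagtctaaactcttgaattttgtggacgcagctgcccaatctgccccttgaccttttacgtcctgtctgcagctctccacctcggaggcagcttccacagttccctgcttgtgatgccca
Counted from the start site, the motif begins at base -79 in Crim1, -65 in Amotl2, and -186 and -164 in Ajuba. In Lats2 the match lay past the start site, at base 5 of the transcript. The target gene that fell and those that gave no call thus both carry the letters, which are a description of these windows and not a measured binding site.

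Wwtr1, Lats2 and Amotl2 shared a pattern across libraries that followed the groups little. In each of the 3, knockout 1 was the lowest knockout library and control 1 the lowest control. The same libraries were lowest in the summed smooth muscle markers, at 849.9 CPM in knockout 1 and 924 CPM in control 1, and in the summed lymphocyte markers, at 210.0 CPM in knockout 1, against 352 and 266 CPM in knockout 2 and 3, and 204 CPM in control 1, against 375 and 263 CPM in controls 2 and 3. None of the 6 smooth muscle and 7 lymphocyte genes was at 0. Not every gene followed its sum. The lymphocyte marker Ptprc stood at 101 CPM in control 1, against 96.8 and 97.1 CPM in controls 2 and 3. The smooth muscle marker Cnn1 stood at 101 CPM in knockout 1, against 84.7 and 90.5 CPM in knockout 2 and 3. Endothelial markers summed to 74.7, 84.9 and 74.0 CPM in knockout libraries, against 43.9, 93.6 and 66.3 CPM in controls, and were lowest in control 1. Knockout 1 and control 1 also share a replicate number, and what these numbers mark is not stated. Their deviations from the group means correlated at 0.27 over all tested genes. How many of those genes share the order seen in Wwtr1, Lats2 and Amotl2 was not counted. With the replicate number as a block, the SE was 0.14 for Wwtr1, 0.14 for Lats2 and 0.17 for Amotl2. Without the block it was 0.24, 0.18 and 0.25. The 3 genes were singled out for low values in same-numbered libraries, so a smaller SE with the block follows from that choice. The part of these cells in the levels of Wwtr1, Lats2 and Amotl2 was not tested.

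**Figure D3:**
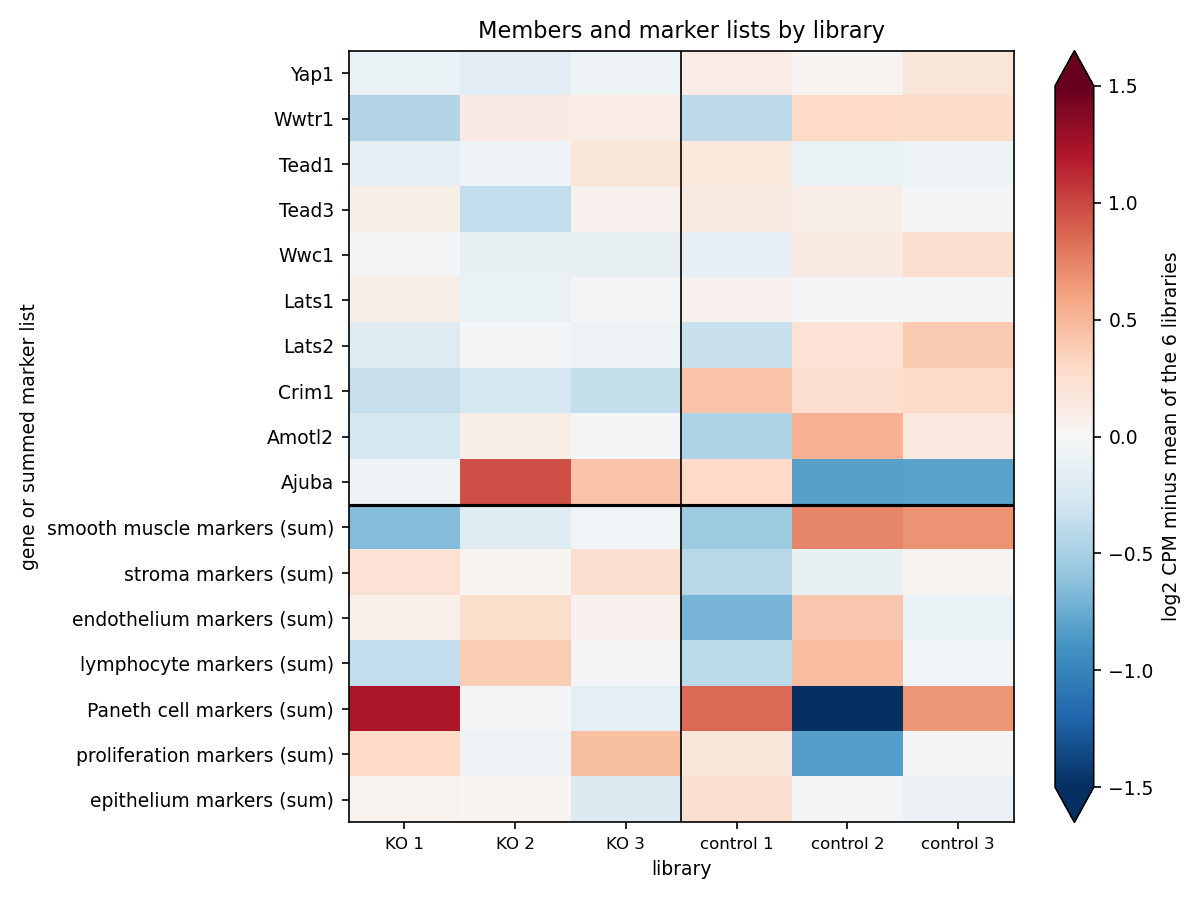
Log2 CPM of each member and of the summed markers of 7 cell classes, minus the mean over the 6 libraries, with Ogt knockout libraries left of controls and colours that end at -1.5 and 1.5. Crim1 is low in all 3 knockout libraries. Wwtr1, Lats2 and Amotl2 are low in knockout 1 and control 1, where the summed smooth muscle and lymphocyte markers are low too.

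Across 7 lists of the wider pathway, which together name 84 genes, 80 were tested, of which 3 were higher and 10 lower in Ogt knockout. That is 16.2% changed, near the 18.7% of all tested genes, with 58 of the 80 fold changes below 0 and a median of -0.17. The split depended on the scaling: with library size alone, and on FPKM with either pseudocount, 5 were higher and 3 lower. In the kinase cassette and its upstream regulators, 4 of 21 fell and none rose (median -0.17), or 19.0%, against 9.37% of all tested genes lower and 18.7% changed. The giant cadherin Fat1 stood at 392.3, 378 and 380.3 CPM in knockout libraries, against 565, 456 and 676 CPM in controls. Knockout libraries were alike and the controls spread above them (-0.56 ± 0.15, adjusted p = 0.0396). Map4k4, a kinase that can activate LATS (-0.53 ± 0.13, adjusted p = 0.0240), Rassf1 (-0.54 ± 0.15, adjusted p = 0.0445) and Sav1, the scaffold that couples MST kinases to LATS (-0.40 ± 0.11, adjusted p = 0.0445), fell as well. Each of these 4 calls was lost when any 1 of 5 libraries was left out, with adjusted p up to 0.149; they held without control 1 for Map4k4 and Sav1, control 2 for Fat1 and knockout 1 for Rassf1. They were also lost with library size alone, where 2 other genes of the list were higher, and on FPKM, where 1 was higher, and that of Sav1 was lost without a count filter. Mob1a, the most abundant of this list per length, stood at -0.26 ± 0.09 and did not pass.

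Among the junction scaffolds and LIM proteins, 1 of 13 rose and 1 fell (median -0.20). The share changed was 15.4%, near the 18.7% of all tested genes. Wtip, a LIM protein of the Ajuba family, stood at 14.1, 12.4 and 11.8 CPM in knockout libraries, against 6.21, 7.94 and 5.94 CPM in controls. All 3 knockout libraries lay well above the controls, and Wtip rose (0.93 ± 0.18, adjusted p = 0.0124). Its relative Limd1 stood at -0.16 ± 0.12. Patj, a scaffold of the Crumbs polarity complex at tight junctions, stood at 111, 108 and 86.1 CPM in knockout libraries, against 159, 164 and 159.8 CPM in controls. It fell, with no overlap between the groups (-0.66 ± 0.12, adjusted p = 0.00990). Both calls held with each library left out in turn. Crb3, the most abundant of the list per length and a partner of Patj in that complex, stood at -0.27 ± 0.12 and did not pass.

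**Figure D4:**
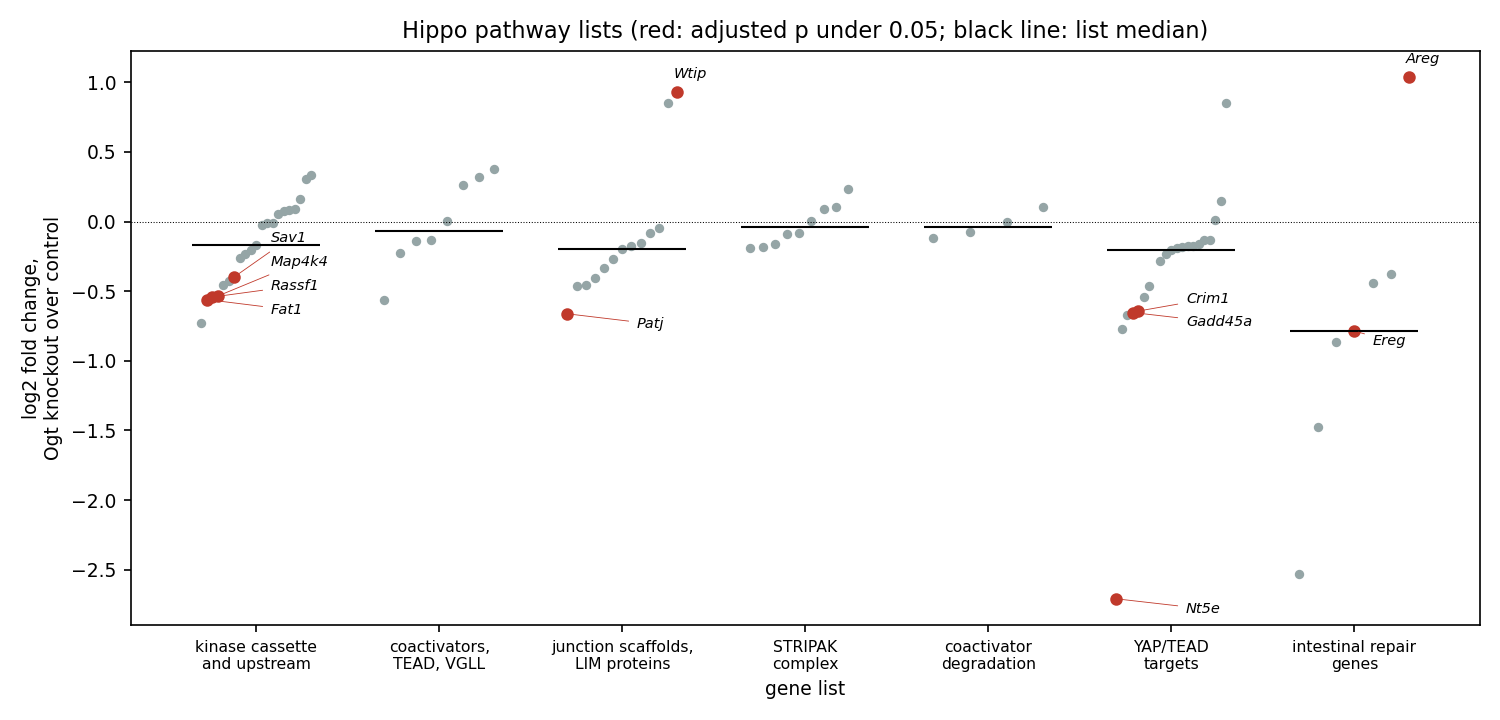
Log2 fold change, Ogt knockout over control, of the tested genes in 7 Hippo pathway lists, sorted within each list, with genes past an adjusted p of 0.05 in red and named and the median of the whole list as a black line; 2 genes are not shown. Calls are scattered over the lists, with Wtip and Areg among the higher genes and Crim1, Patj and Nt5e among the lower.

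Elsewhere in the cascade few genes were called, in short lists, where 18.7% of all tested genes were. Of the 8 tested coactivators, TEAD and VGLL factors 0 passed in edgeR, DESeq2 or voom and 1, Yap1, had an unadjusted p under 0.05. Their median was -0.07, Yap1 was the most abundant per length, and Vgll1 and Vgll2 had 0 counts in every library. Of the 10 genes of STRIPAK, the phosphatase complex that switches off MST kinases, the median fold change was -0.04. Ppp2ca, the catalytic subunit of that phosphatase and the most abundant of the list, stood at 0.09 ± 0.11 and did not pass. Of 4 genes of YAP and TAZ degradation 0 passed in edgeR, DESeq2 or voom and 0 had an unadjusted p under 0.05, and Csnk1d, the most abundant, stood at -0.07 ± 0.09.

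Of 23 YAP and TEAD target genes, 21 were tested, of which 4 fell and none rose (median -0.20, with 18 fold changes below 0). That is 19.0%, against 9.37% of all tested genes lower and 18.7% changed. With library size alone or on FPKM, 2 fell. Beside Crim1 the 4 genes that fell included Nt5e and Gadd45a. The ectonucleotidase gene Nt5e stood at 34.6, 23.0 and 15.6 CPM in knockout libraries, against 325, 69.4 and 82.6 CPM in controls 1 to 3. Control 1 was far above the other controls, which still lay above the knockout libraries (-2.71 ± 0.70, adjusted p = 0.0465), and without control 1 the fold change was -1.60 ± 0.31. Gadd45a, a stress-response gene, fell too (-0.65 ± 0.15, adjusted p = 0.0211). Calls were lost without 1 library for Nt5e (each knockout, adjusted p up to 0.170) and Gadd45a (knockout 1, knockout 3 or control 3, up to 0.0856). That of Nt5e was also lost with library size alone, on FPKM and without a count filter. Ccn1 and Ccn2, the secreted matrix proteins most often used to read YAP activity, were scarce. Ccn1 was read at 4.08, 3.56 and 2.86 CPM in knockout libraries and 3.17, 3.82 and 5.30 CPM in controls, and the groups overlapped (-0.23 ± 0.28, adjusted p = 0.598). Ccn2 was read at 2.83, 2.9998 and 3.02 CPM in knockout libraries, against 3.17, 6.003 and 3.77 CPM in controls, with every control above the knockout libraries but no call (-0.55 ± 0.29, adjusted p = 0.227). The number of target genes called was 6 without control 1, 2 without control 3 or knockout 2, and 1 without knockout 1 or 3.

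In a list of 7 genes linked to YAP in intestinal repair, 1 rose and 1 fell, or 28.6%, against 18.7% of all tested genes. The fold change was below 0 for 6 of them and above 0 for 1, Areg, with a median of -0.79. The 2 called genes, both epidermal growth factor receptor ligands, moved in opposite directions. Areg stood at 22.1, 29.3 and 23.2 CPM in knockout libraries, against 8.89, 11.04 and 16.4 CPM in controls, and rose (1.04 ± 0.23, adjusted p = 0.0205). Ereg fell, with 33.2, 31.1 and 26.6 CPM in knockout libraries against 35.3, 64.1 and 57.3 CPM in controls (-0.79 ± 0.22, adjusted p = 0.0418). Areg lost its call without control 2, knockout 2 or knockout 3 (adjusted p up to 0.0779). Ereg lost its call without every library but control 1 (adjusted p up to 0.143), and with library size alone, voom or FPKM. Clu, the most abundant of the list per length and a marker of revival stem cells, stood at 21.5, 96.3 and 94.5 CPM in knockout libraries 1 to 3 and 101, 91.6 and 96.4 CPM in controls 1 to 3, with knockout 1 far below the other 5 libraries (-0.44 ± 0.52, adjusted p = 0.596).

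The deposited counts and FPKM together give the transcript length, in bases, that the authors' processing assigned to each gene in each library. For Wwc1 this implied length was 4531 bases in all 6 libraries, the length of its single protein-coding transcript in GENCODE M21. Lats1 varied as little, with 7206 to 7211 bases over the 6 libraries. Tead1 stood at 8156, 7836 and 7304 bases in knockout libraries, against 9582, 9564 and 8796 bases in controls, so every knockout library was shorter than every control. For Lats2 the values were 4060, 4227 and 3679 bases in knockout libraries and 4929, 4698 and 4667 bases in controls, again with no overlap. In GENCODE M21 Tead1 has 11 protein-coding transcripts of 546 to 9964 bases, and Lats2 has 7 of 302 to 5191 bases. Crim1, with 5573, 5346 and 5627 bases in knockout libraries and 5996, 5997 and 5469 bases in controls, and Amotl2 overlapped between the groups. Yap1 overlapped as well and was slightly longer in knockout libraries, with a mean of 3987 bases, against 3904 bases in controls.

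The length ratio, Ogt knockout over control, was -0.26 ± 0.06 on the log2 scale for Tead1 (interval -0.40 to -0.12) and -0.26 ± 0.06 for Lats2 (interval -0.40 to -0.12). Neither passed after adjustment over the 4761 genes whose implied length varied (limma, adjusted p = 0.343 for Tead1 and 0.366 for Lats2), and 0 of these genes did, or 0% of them, while 354 had an unadjusted p under 0.05. The groups did not overlap for 13.7% of those genes. The FPKM of Tead1 was 3.49 ± 0.738 in knockout libraries and 2.62 ± 0.280 in controls, and that of Lats2 was 8.15 ± 1.08 in knockout libraries and 7.13 ± 1.79 in controls (SD, n = 3 each), whereas their counts gave fold changes of 0.00 ± 0.14 and -0.20 ± 0.18.

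**Figure D5:**
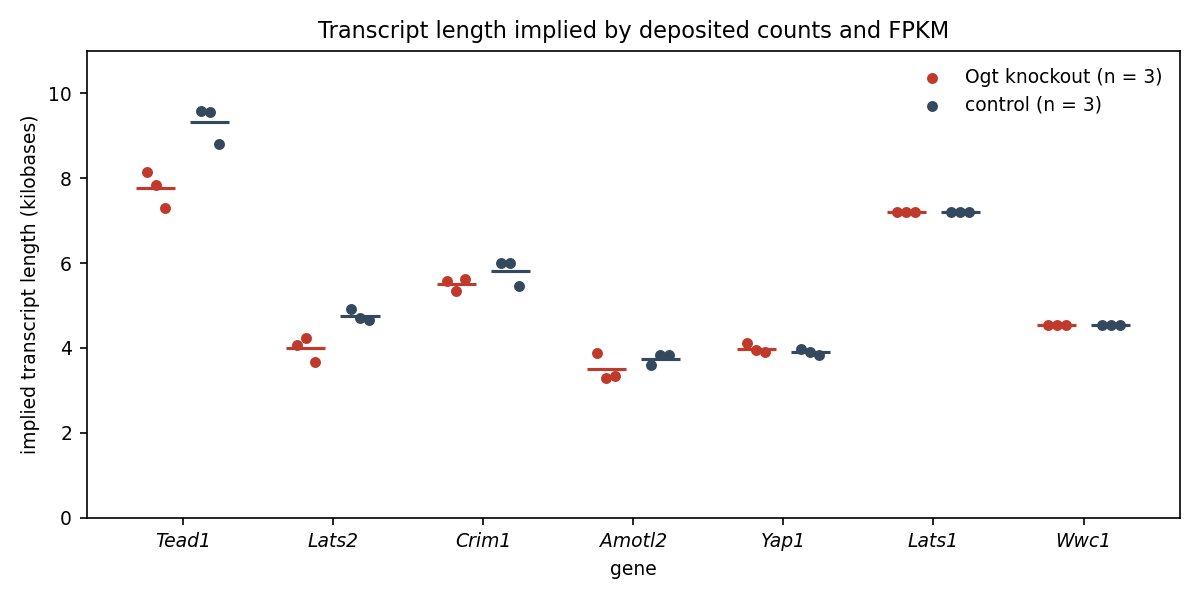
Transcript length in kilobases implied by the deposited counts and FPKM for 7 members in each Ogt knockout (red, left) and control library (dark, right), with a bar at each group mean. Tead1 and Lats2 are shorter in every knockout library than in any control, while Lats1 and Wwc1 hardly vary.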

How the data were processed

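RNA from isolated ileal epithelial cells was extracted with Trizol and made into NEBNext Ultra libraries, per the labels' protocols; no strand setting is given, so a gene and an antisense gene that overlaps it may share reads. Per the file headers, the authors deposited estimated counts (expected counts) and FPKM for 22274 genes. The builds GRCm39 and mm39 come from the submitters' processing notes. The aligner, counter and annotation: not given in the sources used here. Between 7.68% and 8.09% of counts per library were not whole within 0.001, and counts were rounded. IDs were named from GENCODE M21 (22219) or the table, and 1 list gene was matched by synonym.

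Genes were filtered with filterByExpr (minimum count 10, total 15), scaled by TMM and tested with edgeR 4.0.16 (quasi-likelihood, robust; R 4.3.3), Ogt knockout against control, 3 libraries each, with Benjamini-Hochberg adjustment over 14005 genes at 0.05. At these depths 3 counts are 0.159 to 0.207 CPM. In counts simulated for this comparison on 13836 genes, 50 of 100 genes with a 2-fold change and 86 of 100 with a 4-fold change were called, beside 17 false calls, and 0 were called with none changed. Members and lists were chosen with earlier results of these data known. Named genes are the members, list genes past the threshold (up to 6 a list, 3 for markers), the most abundant per list and, for Crim1, its 3 nearest patterns, except 2 genes of the lists that are not reported here; Tead2, Limd1, Ccn1, Ccn2, Epcam, Vil1, Fabp6, Vgll1 and Vgll2 were named after their values were seen. Implied length, count over FPKM scaled by the library total, was added after the data had been seen. It was tested with limma 3.58.1 in genes of a mean of at least 100 counts and 1 FPKM, and at least 0.5 FPKM in each library, whose log2 length ranged over at least 0.05. In lengths simulated for 4761 genes, 162 of 200 genes shifted by 0.5 on the log2 scale were called, with 8 false calls. Recovery at the size seen for Tead1 and Lats2, -0.26 each, was not simulated. Promoters are from RefSeq. Alternatives were other scalings (DESeq2 1.42.0 size factors, library size, upper quartile), DESeq2, limma voom, no filter or 1 CPM in 3 libraries, a replicate block, limma on log2 FPKM with pseudocounts of 0.1 and 1 (minimum 1 FPKM in 3 libraries), each library left out, and a log2 fold change of at least 1. Libraries of a group differed beyond sampling noise, with a chi-square of 19.5 or more per gene in each pair. Figures were drawn with matplotlib 3.10.9.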

Additional observations from a re-analysis of the deposited data

How the results depend on the processing

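Crim1 kept its fall and its call in all 16 alternative fits (log2 fold change -0.67 to -0.39). Yap1 and Wwc1 stayed below 0 without a call in each. The number of members called was 0 with a log2 fold change of at least 1, and 1 to 2 without each library. For all genes the count was 716 with that threshold and 1009 to 3304 without each library; for the pathway lists it was 2, and 3 to 16 without each library, and 8 each (5 higher and 3 lower) with library size alone, log2(FPKM + 0.1) and log2(FPKM + 1). In some alternatives 6 members changed sign without any call. With library size alone these were Wwtr1 (0.0082), Tead3 (0.0013) and Lats1 (0.12). On log2(FPKM + 0.1) they were Wwtr1 (0.0045), Lats1 (0.12), Lats2 (0.21) and Amotl2 (0.10). On log2(FPKM + 1) they were Wwtr1 (0.0036), Lats1 (0.11), Lats2 (0.19) and Amotl2 (0.076). Lats1 did so with DESeq2 size factors (0.0038) and the DESeq2 test (0.0035), and Tead1 with 1 CPM in 3 libraries (-0.0015). The median over all genes was 0.09 with library size alone and 0.12 on log2(FPKM + 0.1), against -0.05 in the main fit. Without 1 library, log2 fold changes ranged over -0.28 to 0.021 for Wwtr1, -0.096 to 0.135 for Tead1, -0.21 to 0.0026 for Tead3, -0.065 to 0.0603 for Lats1 and -0.35 to 0.11 for Amotl2. The cause was not tested. The replicate numbers are not shown to pair the libraries: the correlation of same-numbered deviations was 0.27, 0.25 and 0.084, although each library correlated best with its own number. With the replicate number as a block the calls were 3402 for all genes, 1 for the members (Crim1, -0.64) and 16 for the lists, with Ereg losing its call. The kinase list then had 1 gene higher and 6 lower. Ajuba had the fewest counts of the members, 199 in knockout and 105 in control libraries.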
